A study of Mus musculus with 23 samples.

Results

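Type 1 innate lymphoid cells (ILC1) of the mouse salivary gland were compared with natural killer (NK) cells of the spleen by ATAC-seq, using 4 of the 8 ATAC libraries and 23 libraries of the series. Salivary gland ILC1 (SG ILC1) had 2 libraries and spleen NK cells (Spl NK) had 2. Liver ILC1 (Liv ILC1) and liver NK cells (Liv NK), with 2 libraries each, shared the estimate of the spread and gave a second ILC1 against NK comparison within 1 organ. The design text describes the ILC1 gate as NK1.1+NKp46+CD49a+ and the NK gate as NK1.1+NKp46+CD49a-CD49b+. The sample labels instead call the ILC1 libraries GzmC+GzmcFM+, cells that express granzyme C and carry its fate-mapping mark, and the NK libraries S1pr5eGFP+, so which gate was used for these libraries is not settled by the labels. The fate-mapping mark records past Gzmc expression and the eGFP reports S1pr5, how the alleles were built is not given, and strain, age and sex of the animals are not given in the sources used here. From each sample 50000 cells were sorted and frozen before tagmentation. Salivary gland was digested for 1 h with collagenase and DNase, liver was digested for 30 min with collagenase, and spleen was disrupted between glass slides with no digestion stated, so cell type, organ and tissue preparation differ together between SG ILC1 and Spl NK and cannot be told apart. The labels number the mice behind the libraries, but do not say whether a library came from 1 animal or a pool, so p-values measure the spread between these libraries.

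NK cells circulate through blood and spleen and kill infected or transformed cells, whereas ILC1 are mostly resident in tissues and make cytokines as well as granzymes. Residency is linked to loss of KLF2, the factor that drives the exit receptors S1PR1 and S1PR5, and to gain of retention molecules such as CD49a, CD103 and CXCR6. In the salivary gland, TGF-beta signalling is known to shape ILC1, and it is an inducer of CD103 and CD73. ATAC-seq uses a transposase that inserts adapters into accessible DNA, so the count of fragments in a peak follows how open that stretch is in the sorted population. In a bulk library, fewer cells with an open site and a less open site in every cell cannot be told apart.

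The deposited table held 51412 peaks with a median width of 998 bases, and 51292 of them passed the filter on low counts. Counts in peaks were 16058700 and 26944890 in SG ILC1 and 14270504 and 11101944 in Spl NK, against 5609587 to 9957335 in the 4 liver libraries. Levels are given as CPM, the counts scaled to the TMM-adjusted library size, in the order library 1 then library 2, and are compared between libraries and not between peaks, since peaks differ in width. Libraries of a group were alike, with Pearson's r of log2 CPM over peaks of 0.982 within SG ILC1 and 0.972 within Spl NK, and 0.819 to 0.834 between them. The first principal component of the 8 libraries held 56.7% of the variance, with scores of 159 and 182 for SG ILC1 and of -100 to -22.8 for the other 6 libraries. Promoter peaks held 61.4% and 61.9% of the counts in SG ILC1 and 65.2% and 63.8% in Spl NK. The level at the 5th percentile of peaks was 1.03 and 0.823 CPM in SG ILC1, 1.39 and 1.47 CPM in Spl NK and 2.05 to 2.61 CPM in liver, so the lowest levels that a fall can reach were not equal.

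Gzmc and Klf2 serve as the marker genes of this comparison. Gzmc is the gene that the labels of the ILC1 libraries name, so its level is a check of those labels, and Klf2 is in no label or gate. The promoter peak of Gzmc, which encodes granzyme C, had 21.6 and 24.8 CPM in SG ILC1 and 2.78 and 2.83 CPM in Spl NK. The promoter peak of Klf2, which encodes the egress factor KLF2, had 56.3 and 59.9 CPM in SG ILC1 and 197 and 196 CPM in Spl NK. For both genes the libraries of the groups did not overlap, which was also so at 75% of all peaks tested. NK1.1 and NKp46, which both gates share, are encoded by Klrb1c and Ncr1. The Ncr1 promoter peak had 68.8 and 80.2 CPM in SG ILC1 and 93.9 and 92.3 CPM in Spl NK, which was not called (log2 fold change -0.32 ± 0.20, SE, adjusted p = 0.167). Of 4 peaks of Klrb1c, 1 was higher in SG ILC1, 1 was lower and 2 were not called.

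The 250 bases before the RefSeq start (GRCm38.p6) of 6 genes whose promoter peaks changed are shown to set the DNA beside the measured signal, 3 of genes with a promoter peak higher in SG ILC1 (Gzmc, Cxcr6, Tnfaip3) and 3 of genes with one lower (Klf2, Cmklr1, Il7r). Each reads 5' to 3' on the gene's strand, and capitals mark matches to 12 short motifs: AP-1 TGANTCA, T-box AGGTGTGA, RUNX TGTGGTT, ETS GGAAGT, KLF GGGNGTGG, NR4A AAAGGTCA, TCF CTTTGAA, IRF (searched by its 10-letter consensus), NF-kB GGGANTTCC, E-box CAGGTG, SMAD GTCTAGAC and CTCF AGGGGGC, searched on both strands.
Gzmc: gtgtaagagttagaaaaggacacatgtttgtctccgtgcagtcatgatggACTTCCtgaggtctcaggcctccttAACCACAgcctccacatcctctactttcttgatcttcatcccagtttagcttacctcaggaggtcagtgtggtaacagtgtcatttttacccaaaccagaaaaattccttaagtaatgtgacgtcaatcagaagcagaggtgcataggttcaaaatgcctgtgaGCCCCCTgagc
Cxcr6: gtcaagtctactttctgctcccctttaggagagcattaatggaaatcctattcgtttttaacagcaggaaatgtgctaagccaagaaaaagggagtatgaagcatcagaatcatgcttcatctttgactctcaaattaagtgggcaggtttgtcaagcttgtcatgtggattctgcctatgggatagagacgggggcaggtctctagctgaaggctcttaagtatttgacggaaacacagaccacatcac
Tnfaip3: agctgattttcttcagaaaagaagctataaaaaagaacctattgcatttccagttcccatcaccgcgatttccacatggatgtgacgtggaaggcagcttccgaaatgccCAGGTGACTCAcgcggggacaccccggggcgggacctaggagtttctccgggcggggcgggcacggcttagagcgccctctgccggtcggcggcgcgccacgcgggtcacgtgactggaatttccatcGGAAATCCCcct
Klf2: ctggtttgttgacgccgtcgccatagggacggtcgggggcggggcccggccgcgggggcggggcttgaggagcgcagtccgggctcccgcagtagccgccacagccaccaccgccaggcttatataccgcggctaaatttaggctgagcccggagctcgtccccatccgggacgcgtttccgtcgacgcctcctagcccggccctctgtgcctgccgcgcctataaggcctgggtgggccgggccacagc
Cmklr1: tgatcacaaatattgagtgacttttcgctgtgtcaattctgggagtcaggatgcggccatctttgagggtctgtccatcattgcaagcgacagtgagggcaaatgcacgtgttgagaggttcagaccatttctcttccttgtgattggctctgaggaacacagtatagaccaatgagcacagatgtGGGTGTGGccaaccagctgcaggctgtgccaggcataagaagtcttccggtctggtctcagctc
Il7r: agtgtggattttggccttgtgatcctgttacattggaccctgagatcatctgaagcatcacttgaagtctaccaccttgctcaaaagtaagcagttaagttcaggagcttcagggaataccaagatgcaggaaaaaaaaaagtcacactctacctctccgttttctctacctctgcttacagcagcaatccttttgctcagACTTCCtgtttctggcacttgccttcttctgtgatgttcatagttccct

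The windows are chr14:56234658-56234907 (minus strand) for Gzmc, chr9:123806227-123806476 (plus) for Cxcr6, chr10:19015411-19015660 (minus) for Tnfaip3, chr8:72318812-72319061 (plus) for Klf2, chr5:113643604-113643853 (minus) for Cmklr1 and chr15:9529877-9530126 (minus) for Il7r. Gzmc held an ETS match that began at base -200 from the start, a RUNX match at -175 and a CTCF match at -11. In Tnfaip3 an E-box at -140 ran into an AP-1 match at -136 with which it shares bases, and an NF-kB match began at -12. Cmklr1 held a KLF match at -64 and Il7r an ETS match at -49. Klf2 and Cxcr6 held none of the 12, which says only that these letters are not in the window. The peaks that cover the windows had log2 fold changes of 3.05 (Gzmc), 3.44 (Cxcr6), 0.76 (Tnfaip3), -1.76 (Klf2), -2.86 (Cmklr1) and -1.29 (Il7r), SG ILC1 over Spl NK.

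Of the 51292 peaks tested, 24745 (48.2%) were called at an adjusted p under 0.05 in edgeR's quasi-likelihood test with Benjamini-Hochberg adjustment over all peaks. Among them 11281 (22.0%) were higher in SG ILC1 and 13464 (26.2%) were lower, and the median log2 fold change of all peaks was -0.09. At an unadjusted p under 0.05 the count was 27542. The libraries of the groups did not overlap at 24637 of the called peaks, and at 75% of all peaks tested. A change past 2-fold was seen at 6696 called peaks higher and 8108 lower, past 4-fold at 1647 and 3055, past 8-fold at 267 and 484, and past 16-fold at 23 and 69.

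The share of called peaks was 37.2% at promoters and 52.7% to 55.4% at other sites. Of 17983 promoter peaks, 2817 were higher in SG ILC1 and 3869 were lower, with 306 and 384 of them past 4-fold. Introns had 4230 of 15228 peaks higher and 4208 lower (55.4% called), exons 958 of 3424 higher and 846 lower (52.7%), and intergenic sites 3276 of 14657 higher and 4541 lower (53.3%). The balance moved with the level of the peak: in the 10259 peaks of lowest mean level over the 4 libraries, the first of 5 equal classes, 12.7% were higher and 36.4% lower with a median of -0.44, and in the next to highest class 34.1% were higher and 20.1% lower with a median of 0.12. Promoters made up 15.3% of the lowest class and 73.3% of the highest, where the median was -0.08.

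Both peaks assigned to Gzmc were higher in SG ILC1. The promoter peak (chr14:56234259-56235420), with the levels above, had a log2 fold change of 3.05 ± 0.27 (SE) at an adjusted p of 4.11e-28. A second peak between genes at chr14:56229957-56231173 had 13.3 and 16.4 CPM in SG ILC1 and 1.80 and 3.52 CPM in Spl NK, a log2 fold change of 2.50 ± 0.30 (adjusted p = 1.76e-15). No tested peak was assigned to the Gzmc neighbours Gzmd, Gzme, Gzmg or Gzmn. Another neighbour, Gzmf, had 2 tested peaks, whose values are not reported here. All 3 peaks assigned to Klf2 were lower. The promoter peak (chr8:72318558-72320764) had a log2 fold change of -1.76 ± 0.21 (adjusted p = 4.15e-16). A peak between genes at chr8:72329555-72330331 had 0.89 and 1.03 CPM in SG ILC1 and 16 and 18.6 CPM in Spl NK, a log2 fold change of -4.13 ± 0.32 (adjusted p = 2.48e-35). Its neighbour at chr8:72330975-72331287 had 0.547 and 0.165 CPM in SG ILC1 and 2.95 and 3.71 CPM in Spl NK (-3.33 ± 0.54, adjusted p = 4.37e-09). At each of the 5 peaks of Gzmc and Klf2 both SG ILC1 libraries lay on 1 side of both Spl NK libraries, as at 75% of all peaks tested.

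**Figure D1:**
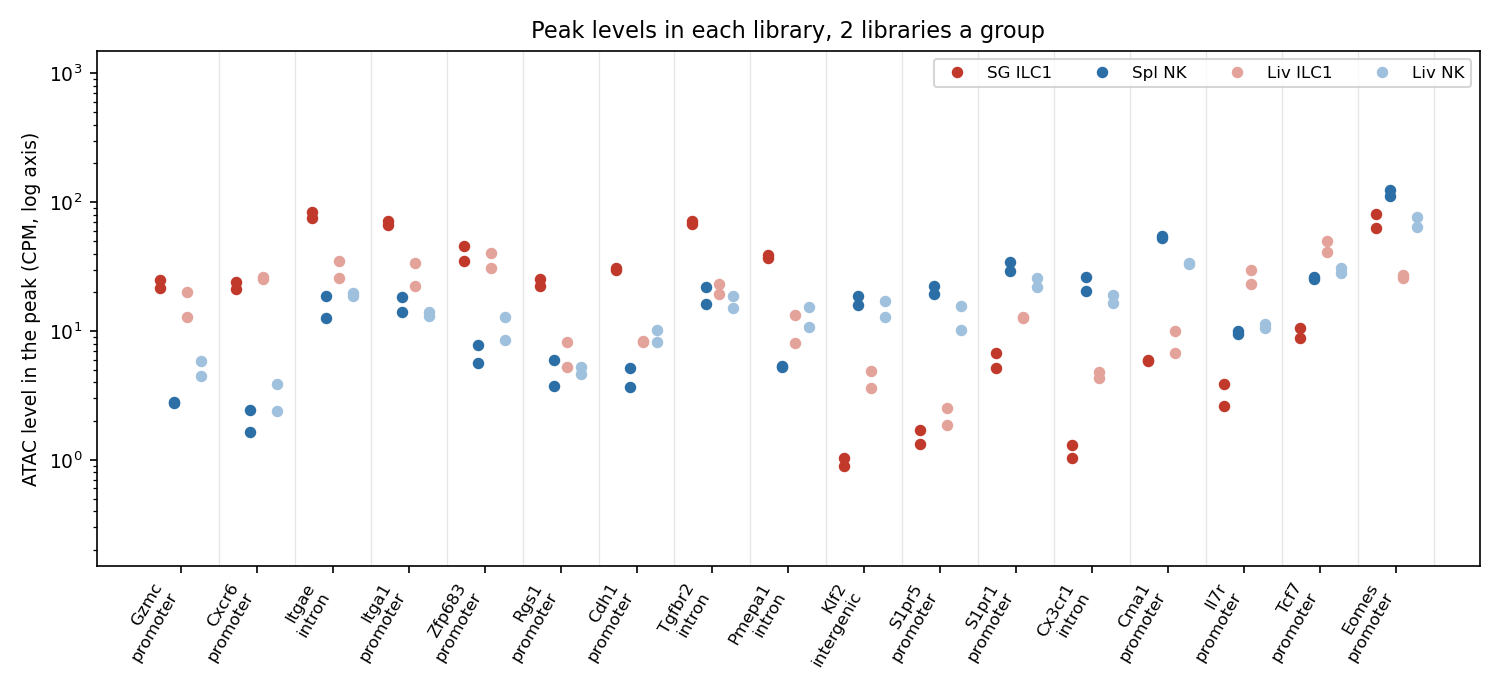
ATAC level in CPM on a log axis for 1 peak of each of 17 genes, with 1 point per library and 2 libraries for SG ILC1, Spl NK, Liv ILC1 and Liv NK. SG ILC1 lie above Spl NK from Gzmc to Pmepa1 and below from Klf2 to Eomes, and the Il7r and Tcf7 points of Liv ILC1 lie above those of Liv NK.

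Genes of tissue egress were mostly less open in SG ILC1. Of 41 peaks of 11 such genes, 24 were lower and 3 higher (58.5% and 7.32%, against 26.2% and 22.0% of all peaks), with a median log2 fold change of -1.02 against -0.09 over all peaks, and 10 of their 16 promoter peaks were lower with none higher, where all promoter peaks had 21.5% lower and 15.7% higher. With only the 4 SG ILC1 and Spl NK libraries in the fit, 6 were higher. Where a gene is described by 1 peak, it is the peak with the smallest p among those assigned to it. S1pr1, the sphingosine phosphate receptor that lymphocytes use to leave tissue, had 6.77 and 5.19 CPM at its promoter in SG ILC1 and 34.5 and 29.5 CPM in Spl NK (log2 fold change -2.44 ± 0.21, adjusted p = 2.13e-29). All 3 peaks of S1pr1 were lower. S1pr5, which serves NK cell exit from marrow and is the gene of the NK reporter, had 1.71 and 1.32 CPM in SG ILC1 and 22.3 and 19.4 CPM in Spl NK (-3.81 ± 0.30, adjusted p = 6.39e-34), and its other 2 peaks were not called. Cx3cr1, the fractalkine receptor of circulating NK cells, was mixed, with 3 of 7 peaks lower and 2 higher. Its intron peak had 1.30 and 1.03 CPM in SG ILC1 and 26.4 and 20.6 CPM in Spl NK (-4.36 ± 0.30, adjusted p = 9.17e-47).

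Residency genes were mostly more open. Of 132 peaks of 20 genes, 84 were higher in SG ILC1 and 8 lower (63.6% and 6.06%, against 22.0% and 26.2% of all peaks), and the median was 0.89. Cxcr6, the receptor that holds ILC1 at sites of CXCL16, had all 3 peaks higher, and its promoter had 21.3 and 24.2 CPM in SG ILC1 and 2.46 and 1.66 CPM in Spl NK (3.44 ± 0.27, adjusted p = 1.04e-34). Itga1, which encodes the gate antigen CD49a, had 12 of 13 peaks higher and 1 lower, and 66.3 and 71.4 CPM at its promoter in SG ILC1 against 18.3 and 14.2 CPM in Spl NK (2.08 ± 0.19, adjusted p = 6.79e-27). Zfp683, which encodes the residency factor Hobit, had 4 of 5 peaks higher, and its promoter had 34.8 and 45.7 CPM in SG ILC1 and 5.65 and 7.81 CPM in Spl NK (2.59 ± 0.21, adjusted p = 6.62e-34). Rgs1, a brake on chemokine receptor signalling, had all 6 of its peaks higher. Its promoter peak had 25.5 and 22.3 CPM in SG ILC1 and 3.77 and 5.96 CPM in Spl NK (2.31 ± 0.26, adjusted p = 2.55e-17). All 4 peaks of Ctla4, an inhibitory receptor of T cells, were higher, as were 12 of 20 peaks of Chn2 and 13 of 17 of Litaf.

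Itgae, which encodes the CD103 chain that binds E-cadherin, was split. An intron peak had 75.5 and 83.5 CPM in SG ILC1 and 18.6 and 12.7 CPM in Spl NK (2.34 ± 0.19, adjusted p = 9.08e-33) and 1 more peak was higher, but 3 of its 6 peaks were lower. Cdh1, which encodes E-cadherin itself and is an epithelial gene that some lymphocytes also express, had 7 of 9 peaks higher and 1 lower. A promoter peak of Cdh1 had 29.6 and 31.0 CPM in SG ILC1 and 3.68 and 5.18 CPM in Spl NK (2.78 ± 0.24, adjusted p = 3.09e-28). Cdh1 is also in the list of salivary epithelium markers described further on. Among 14 genes named for salivary gland ILC1, 49 of 79 peaks were higher and 8 lower (62% and 10.1%, against 22.0% and 26.2% of all peaks), with a median of 0.81. That list shares Itgae, Cd69, Itga1, Cxcr6 and Cdh1 with the residency list. Nt5e, which encodes the ectoenzyme CD73, had all 4 peaks higher, and an intron peak had 17.3 and 18.3 CPM in SG ILC1 and 3.27 and 2.34 CPM in Spl NK (2.65 ± 0.30, adjusted p = 2.06e-17). Pdcd1lg2, which encodes the PD-1 ligand PD-L2, had 7 of 8 peaks higher.

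**Figure D2:**
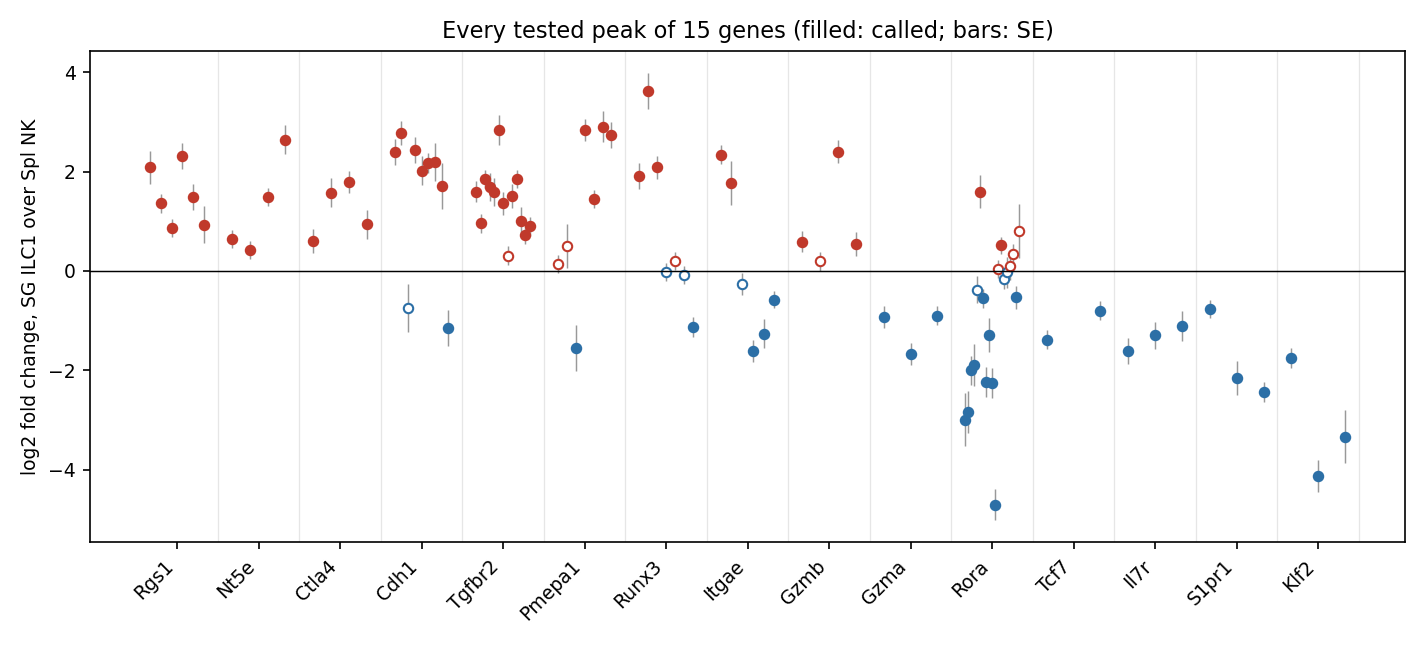
Log2 fold change of SG ILC1 over Spl NK at every tested peak of 15 genes, in genome order within a gene, with SE as bars, filled points for called peaks and red above and blue below 0. All peaks of Rgs1, Nt5e and Ctla4 were higher, all of Gzma, Tcf7, Il7r, S1pr1 and Klf2 were lower, and Itgae and Rora held called peaks on both sides.

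TGF-beta pathway and response genes had 61 of 122 peaks higher and 14 lower (50% and 11.5%, against 22.0% and 26.2% of all peaks), with a median of 0.48. Without Spl NK library 1 the lower count was 9. The list is not separate from those above, and shares Itgae, Itga1 and Skil with the residency list. It also shares Itgae, Itga1, Cd9 and Nt5e with the salivary gland ILC1 list. Itga1, the gene of the gate antigen CD49a, has 13 of the 122 peaks, and most of those were higher. At Tgfbr2, the signalling receptor chain, 12 of its 13 peaks were higher and none was lower. Its intron peak at chr9:116160137-116161563 had 67.7 and 71.4 CPM in SG ILC1 and 16.4 and 22.1 CPM in Spl NK (1.86 ± 0.18, adjusted p = 3.18e-22), and its promoter had 81.0 and 97.9 CPM in SG ILC1 against 55.6 and 52.9 CPM in Spl NK (0.72 ± 0.19, adjusted p = 0.000464). The coreceptor gene Tgfbr3 had 7 of 12 peaks higher and 1 lower. Skil, a repressor of SMAD signalling that the pathway induces, had 3 of 4 higher, and a peak between genes had 15.7 and 11.9 CPM in SG ILC1 and 1.23 and 2.64 CPM in Spl NK (2.85 ± 0.34, adjusted p = 6.45e-16). Pmepa1, another induced feedback gene, had 4 of 7 higher and 1 lower, with 37.1 and 38.8 CPM in SG ILC1 and 5.32 and 5.27 CPM in Spl NK at an intron peak (2.84 ± 0.22, adjusted p = 4.98e-35). The ligand gene Tgfb1 had 2 of 3 peaks higher. A peak between genes assigned to Tgfb1 had 123 and 87.0 CPM in SG ILC1 and 25.5 and 29.1 CPM in Spl NK (1.94 ± 0.19, adjusted p = 1.09e-23). Smad7, the inhibitory SMAD, went the other way at 1 of 4 peaks, with 0.958 and 1.07 CPM in SG ILC1 and 5.57 and 7.33 CPM in Spl NK (-2.64 ± 0.38, adjusted p = 5.35e-11), and its other 3 were not called.

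Transcription factors of the T-box, ILC and lymphocyte list had 77 of 305 peaks higher and 80 lower and a median of 0.02. These shares, 25.2% and 26.2%, were near the 22.0% and 26.2% of all peaks, and 20 of 38 genes had called peaks in both directions. Runx3, a factor of cytotoxic and resident lymphocytes, had 3 of 7 peaks higher and 1 lower. An intron peak of Runx3 had 14.9 and 14.2 CPM in SG ILC1 and 0.9 and 1.47 CPM in Spl NK (3.63 ± 0.36, adjusted p = 3.05e-22). Stat4, which carries interleukin 12 signals, had 11 of 17 higher and 1 lower, and its promoter had 20.7 and 28.9 CPM in SG ILC1 and 4.42 and 4.2 CPM in Spl NK (2.52 ± 0.24, adjusted p = 1.95e-23). Rora, an ILC factor, had 10 of 19 peaks lower and 2 higher. Its intron peak at chr9:69121051-69121878 had 0.274 and 1.32 CPM in SG ILC1 and 22.6 and 24.4 CPM in Spl NK (-4.70 ± 0.31, adjusted p = 2.22e-49), while its promoter had 34.1 and 42.2 CPM in SG ILC1 and 28.2 and 25.3 CPM in Spl NK (0.51 ± 0.18, adjusted p = 0.0109).

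Eomes, which encodes the T-box factor of conventional NK cells, has 1 peak, at its promoter, with 63.5 and 81.2 CPM in SG ILC1 and 124 and 112 CPM in Spl NK (-0.70 ± 0.19, adjusted p = 0.000813). Without SG ILC1 library 1 the fold change of Eomes was -0.60 and the call was lost (adjusted p = 0.0541). Tbx21, which encodes T-bet, had 1 of 4 peaks higher and 1 lower, and an intron peak had 23.5 and 33.9 CPM in SG ILC1 and 14.2 and 16.7 CPM in Spl NK (0.91 ± 0.19, adjusted p = 1.19e-05). That call of Tbx21 was lost without SG ILC1 library 2 (0.53, adjusted p = 0.0756). Zeb2, a factor of mature NK cells, had 5 of 9 peaks higher and 2 lower. Its exon peak had 32.0 and 28.2 CPM in SG ILC1 and 9.17 and 7.03 CPM in Spl NK (1.88 ± 0.22, adjusted p = 1.13e-16). Ikzf2, which encodes Helios, had 6 of 10 peaks lower and none higher, and Tox2, a factor of NK development, had 3 of 5 lower and none higher.

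Genes of stem-like and memory lymphocytes had 35 of 89 peaks lower and 19 higher, with a median of -0.18. The lower share was 39.3%, against 26.2% of all peaks, and the higher share of 21.3% was near the 22.0% of all peaks. Without SG ILC1 library 2 the higher count was 11. Tcf7, which encodes TCF-1, had both of its peaks lower, and the promoter peak at chr11:52273784-52275990 had 8.90 and 10.7 CPM in SG ILC1 and 25.2 and 26.1 CPM in Spl NK (-1.38 ± 0.19, adjusted p = 9.40e-12). Il7r, the interleukin 7 receptor chain that is usually counted as an ILC1 marker, had all 3 peaks lower. Its promoter peak at chr15:9528012-9528771 had 3.90 and 2.64 CPM in SG ILC1 and 9.49 and 9.96 CPM in Spl NK (-1.60 ± 0.26, adjusted p = 8.71e-09), and the promoter peak that holds the sequence above had 3.28 and 4.16 CPM in SG ILC1 and 8.27 and 10.3 CPM in Spl NK (-1.29 ± 0.28, adjusted p = 1.26e-05). Myb and Slamf6 each had 2 of 2 peaks lower. Foxo1, which drives Klf2 and Il7r in lymphocytes, had 3 of 7 lower and none higher, with 8.42 and 6.75 CPM in SG ILC1 and 21.6 and 20.7 CPM in Spl NK at an intron peak (-1.49 ± 0.22, adjusted p = 9.74e-11). Bach2, a repressor that keeps lymphocytes unpolarised, had 8 of 24 peaks higher and 4 lower.

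AP-1, NR4A and early response genes had 40 of 91 peaks higher and 4 lower (44% and 4.4%, against 22.0% and 26.2% of all peaks), with a median of 0.40. Their share called in either direction, 48.4%, was near the 48.2% of all peaks. Without SG ILC1 library 2 the higher count was 24, and without SG ILC1 library 1 the lower count was 2. These genes are also known to respond to tissue digestion, which salivary gland underwent and which is not stated for spleen, and digestion and cell type cannot be told apart here. Maff, a small MAF protein that pairs with AP-1 type factors, had 3 of 4 peaks higher, and an intron peak had 20.8 and 20.3 CPM in SG ILC1 and 1.23 and 1.86 CPM in Spl NK (3.75 ± 0.31, adjusted p = 9.88e-31). Tnfaip3, which encodes the NF-kB brake A20, had 4 of 5 higher. Its promoter peak at chr10:19008897-19009876 had 27.8 and 26.9 CPM in SG ILC1 and 4.09 and 3.52 CPM in Spl NK (2.84 ± 0.26, adjusted p = 1.03e-25). Nfkbiz, an atypical I-kappa-B, had 22.4 and 18 CPM in SG ILC1 and 3.44 and 4.3 CPM in Spl NK at a peak between genes (2.39 ± 0.27, adjusted p = 7.58e-17). Atf3, a stress-induced factor, had 80.2 and 76.9 CPM in SG ILC1 and 18.5 and 21.5 CPM in Spl NK at an intron peak (1.98 ± 0.19, adjusted p = 1.23e-24). Nr4a3, an orphan receptor induced by activation, had 2 of 6 peaks higher and 1 lower. The promoter of Jun, a core AP-1 subunit, was not called, with 327 and 349 CPM in SG ILC1 and 328 and 260 CPM in Spl NK (0.20 ± 0.23, adjusted p = 0.483), although it was called higher with loess offsets (0.54, adjusted p = 4.86e-08).

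Granule genes had 19 of 60 peaks higher and 19 lower (31.7% each, against 22.0% and 26.2% of all peaks). Gzmb, which encodes granzyme B, had 3 of 4 peaks higher and none lower, and a peak between genes had 25.0 and 25.0 CPM in SG ILC1 and 4.75 and 4.69 CPM in Spl NK (2.40 ± 0.23, adjusted p = 1.55e-23). Gzma, which encodes granzyme A, had all 3 peaks lower, with 6.57 and 8.07 CPM at a promoter peak in SG ILC1 and 21.4 and 25.8 CPM in Spl NK (-1.67 ± 0.22, adjusted p = 1.49e-13). Gzmm, which encodes granzyme M, also had 3 of 3 lower. Cma1, a chymase gene best known from mast cells, had 5.82 and 6.01 CPM at its promoter in SG ILC1 and 52.5 and 54.4 CPM in Spl NK (-3.17 ± 0.20, adjusted p = 2.92e-53). Nkg7, a granule membrane gene, had both peaks lower, and its promoter had 86.1 and 95 CPM in SG ILC1 and 224 and 199 CPM in Spl NK (-1.22 ± 0.21, adjusted p = 5.23e-08). Prf1, which encodes perforin, had 76.1 and 78.4 CPM at its promoter in SG ILC1 and 94.5 and 98.7 CPM in Spl NK, which was not called (-0.32 ± 0.19, adjusted p = 0.155), and 1 of its 4 peaks was higher. Srgn, which encodes the granule proteoglycan serglycin, had 4 of 5 peaks higher.

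The Ly49, NKG2 and NKR-P1 receptor genes had 15 of 74 peaks higher and 23 lower (20.3% and 31.1%), near the 22.0% and 26.2% of all peaks, with a median of -0.13. Their counts moved with single libraries: the higher count was 6 without SG ILC1 library 2 and 8 without Spl NK library 2, and the lower count was 15 without SG ILC1 library 1. Members of this family are near-identical copies, and how the authors treated fragments that map to several of them is not given in the sources used here, so single Ly49 values are uncertain. No Ly49 peak was lower, and 8 were higher over Klra3, Klra5, Klra6, Klra7, Klra8, Klra9 and Klra17. These genes had 3, 1, 2, 5, 2, 1 and 1 tested peaks, and Klra1 and Klra4 had 2 and 1 with no call. At the Klra7 and Klra9 peaks of smallest p the groups overlapped (adjusted p = 0.0254 and 0.0277). The Klra9 peak had 21.0 and 29.0 CPM in SG ILC1 and 21.5 and 14.55 CPM in Spl NK. The call of Klra8, which encodes the activating receptor Ly49H, was near the threshold, with 6.84 and 7.66 CPM in SG ILC1 and 4.58 and 4.01 CPM in Spl NK at its promoter (0.75 ± 0.33, adjusted p = 0.0451). It was lost in 7 alternatives besides the stricter test against a fold change, where adjusted p ran to 0.272. Klrc1, which encodes the inhibitory chain NKG2A, had both peaks lower, and its promoter had 15.9 and 19.4 CPM in SG ILC1 and 35.0 and 40.1 CPM in Spl NK (-1.08 ± 0.18, adjusted p = 2.50e-08). Klrk1, which encodes NKG2D, had 3 of 6 lower, and Klrg1, a receptor of mature NK cells, 4 of 6. A peak between genes assigned to Ncr1 had 1.23 and 1.98 CPM in SG ILC1 and 11.3 and 10.3 CPM in Spl NK (-2.70 ± 0.34, adjusted p = 2.13e-14).

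Integrin genes had 29 of 89 peaks higher and 20 lower (32.6% and 22.5%, against 22.0% and 26.2% of all peaks). Itga2, which encodes the NK gate antigen CD49b, had 4 of 9 peaks lower and 1 higher, and an exon peak had 29.6 and 32.0 CPM in SG ILC1 and 72.9 and 52.8 CPM in Spl NK (-1.03 ± 0.18, adjusted p = 1.21e-07). Itgb8, whose product activates latent TGF-beta, had 3 of 9 peaks higher and none lower. Its exon peak had 61.7 and 52.3 CPM in SG ILC1 and 14.2 and 14.2 CPM in Spl NK (2.00 ± 0.19, adjusted p = 4.07e-24). Of the 45 peaks of chemokine and sphingosine phosphate receptors, 19 were higher and 15 lower (42.2% and 33.3%). Cxcr3, a receptor for interferon-induced chemokines, had all 4 peaks higher and Ccr8 both of its 2. Cmklr1, the chemerin receptor of circulating NK cells and not in that list, had 1.64 and 2.18 CPM at a promoter peak in SG ILC1 and 63.4 and 52.4 CPM in Spl NK (-4.88 ± 0.23, adjusted p = 3.55e-96). That Cmklr1 peak, at chr5:113626005-113627232, is not the promoter peak that holds the sequence above. Cxcr4, a marrow homing receptor, had 3 of 4 peaks lower and 1 higher. A peak between genes assigned to Cxcr4 had 4.04 and 3.42 CPM in SG ILC1 and 19.7 and 11.4 CPM in Spl NK (-2.08 ± 0.27, adjusted p = 3.21e-13).

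Cytokine and chemokine genes had 18 of 48 peaks higher and 10 lower (37.5% and 20.8%, against 22.0% and 26.2% of all peaks). Il2 had both peaks higher, and a peak between genes had 32.0 and 27.7 CPM in SG ILC1 and 2.70 and 3.03 CPM in Spl NK (3.38 ± 0.26, adjusted p = 2.50e-37). Csf2, which encodes the myeloid growth factor GM-CSF, had 2 of 2 higher. Ifng, the defining cytokine of both cell types, had 1 of 5 peaks called, with 1.03 and 0.741 CPM in SG ILC1 and 12.1 and 8.50 CPM in Spl NK (-3.57 ± 0.37, adjusted p = 1.84e-20), and its other 4 were not called. Among cytokine receptors 34 of 86 peaks were higher and 22 lower (39.5% and 25.6%). Il21r had 5 of 7 higher and 1 lower, Il4ra 4 of 6 higher and Il2ra 4 of 7 higher, and a peak assigned to Il4ra had 71.6 and 68.9 CPM in SG ILC1 and 11.9 and 19.1 CPM in Spl NK (2.19 ± 0.19, adjusted p = 3.13e-29). The interleukin 18 receptor genes Il18r1 and Il18rap had 4 of 7 and 3 of 5 peaks lower, with 1 peak of Il18r1 higher. Kit, the stem cell factor receptor often listed for ILC1, had 4 of 6 lower.

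Inhibitory and costimulatory receptor genes had 29 of 65 peaks higher and 11 lower (44.6% and 16.9%, against 22.0% and 26.2% of all peaks), with a median of 0.36, and the higher count was 17 without SG ILC1 library 2. Lag3, an inhibitory receptor for MHC class II, had 2 of 4 peaks higher, and a peak between genes had 32.2 and 27.4 CPM in SG ILC1 and 6.22 and 6.35 CPM in Spl NK (2.24 ± 0.23, adjusted p = 8.41e-21). Pdcd1, which encodes PD-1, had 3 of 4 higher, and an exon peak had 49.1 and 39 CPM in SG ILC1 and 17.2 and 16.1 CPM in Spl NK (1.40 ± 0.19, adjusted p = 1.74e-12). Tigit, an inhibitory receptor for nectins, had 4 of 5 higher and 1 lower. Cd226, the activating receptor for the same ligands, had 5 of 9 higher and 3 lower. At an intron peak of Cd226 the level was 22.5 and 23.6 CPM in SG ILC1 and 6.79 and 4.3 CPM in Spl NK (2.04 ± 0.23, adjusted p = 5.67e-17).

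Cell cycle genes had 21 of 42 peaks lower and 2 higher (50% and 4.76%, against 26.2% and 22.0% of all peaks) and a median of -0.41, and 11 of their 24 promoter peaks were lower and 1 higher, where all promoter peaks had 21.5% lower and 15.7% higher. The higher count was 1 without SG ILC1 library 1 and without either Spl NK library. Ccne1, which encodes cyclin E, had all 3 peaks lower, with 4.38 and 6.88 CPM in SG ILC1 and 38.5 and 39 CPM in Spl NK at a peak between genes (-2.75 ± 0.21, adjusted p = 1.80e-38). Cdc20, the mitotic activator, had 24.8 and 22.8 CPM at its promoter in SG ILC1 and 50.8 and 48.0 CPM in Spl NK (-1.05 ± 0.18, adjusted p = 2.96e-08). Interferon-stimulated genes had 5 of 38 peaks higher and 9 lower, 36.8% called against 48.2% of all peaks, with 3 higher without SG ILC1 library 2 and 5 lower in DESeq2. Housekeeping genes had 6 of 24 higher and 7 lower (25% and 29.2%), near the shares of all peaks, and the lower count was 3 in DESeq2 and without Spl NK library 1 and 4 without SG ILC1 library 2.

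**Figure D3:**
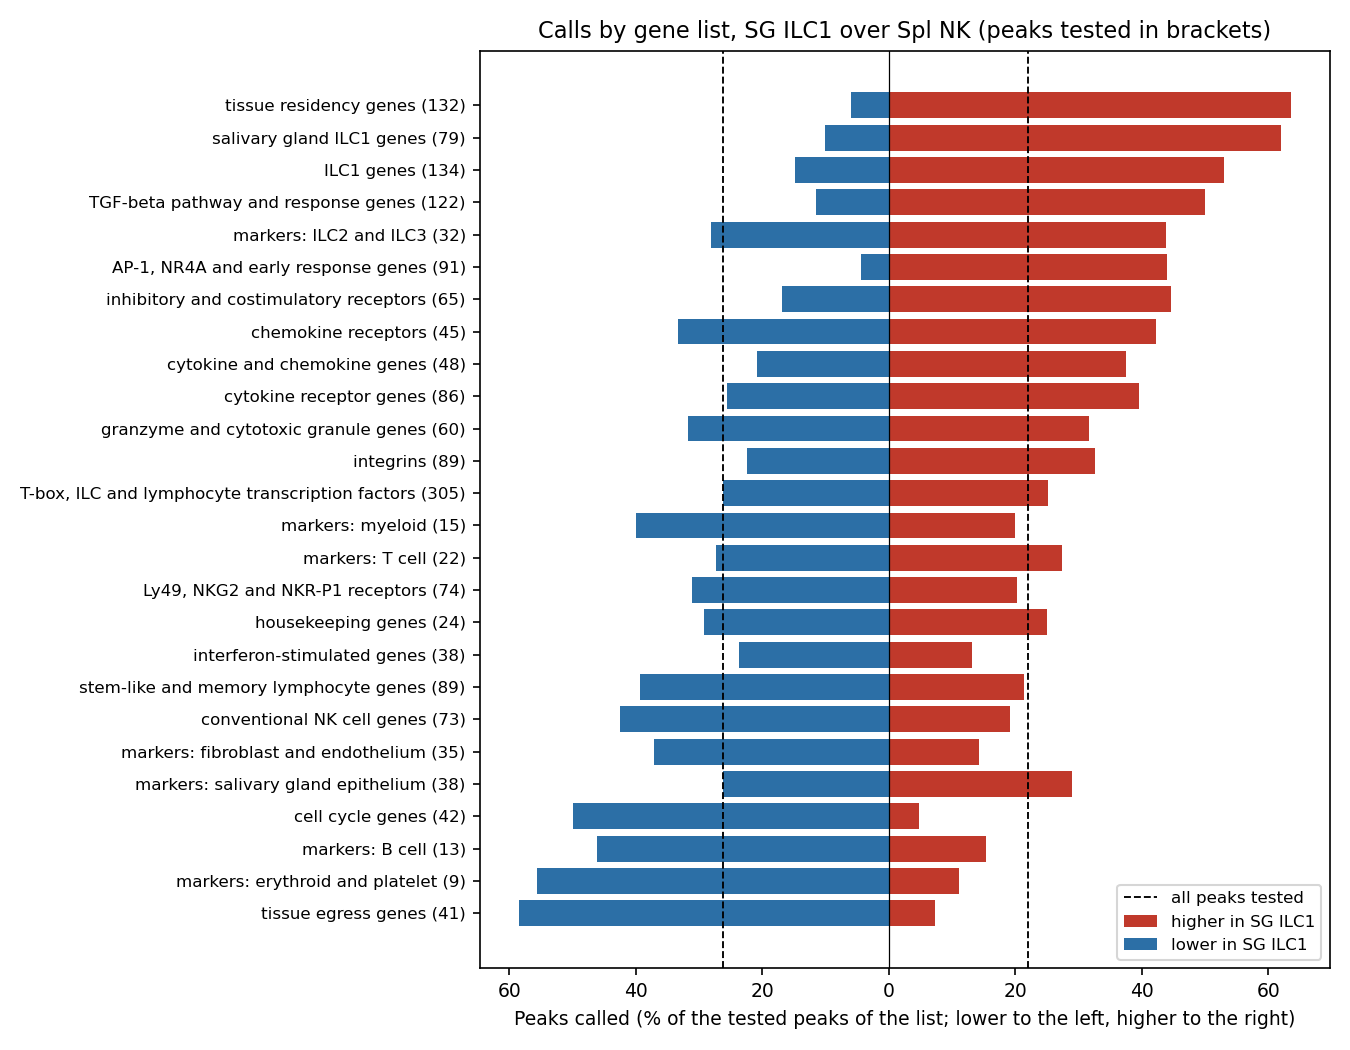
Share of the tested peaks of each of 26 gene lists that were higher (right, red) or lower (left, blue) in SG ILC1, with lists ordered by median log2 fold change, the number of peaks in brackets and dashed lines at 22.0% and 26.2% for all peaks. Residency genes reached 63.6% higher, and egress genes 58.5% lower.

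Markers of other cell types that a sort could hold were checked as whole lists, and their counts stand beside 22.0% higher and 26.2% lower over all peaks. T cell markers had 6 of 22 peaks higher and 6 lower, and their summed level was 504 to 533 CPM in SG ILC1 and 557 CPM in both Spl NK libraries. Of 9 T cell genes with a tested peak, 5 had a higher peak and 4 a lower one, with both in 2. Among them the promoter of Cd3e, a CD3 chain gene, had 13.4 and 17.2 CPM in SG ILC1 and 5.89 and 5.18 CPM in Spl NK (1.47 ± 0.26, adjusted p = 7.63e-08), and Cd4 and Cd8a had no tested peak. The higher count of T cell peaks was 3 without SG ILC1 library 1, without SG ILC1 library 2 or without Spl NK library 1. B cell markers had 2 of 13 higher and 6 lower, at 79.4 to 85.1 CPM in SG ILC1 and 84.0 to 105 CPM in Spl NK, and no B cell peak passed 20 CPM in either group. The higher count of B cell peaks was 1 without any single library of the 4, with loess offsets and in DESeq2, and the lower count was 3 without SG ILC1 library 2. Myeloid markers had 3 of 15 higher and 6 lower, at 201 to 219 CPM in SG ILC1 and 185 to 198 CPM in Spl NK, and all 3 higher peaks belonged to Spi1. At the promoter of Spi1, which encodes the factor PU.1, the level was 21.6 and 21.0 CPM in SG ILC1 and 1.80 and 2.83 CPM in Spl NK (3.21 ± 0.30, adjusted p = 3.26e-25). Fibroblast and endothelium markers had 5 of 35 higher and 13 lower, at 269 to 304 CPM in SG ILC1 and 363 to 366 CPM in Spl NK, with 1 to 3 higher when any single library of the 4 was left out. Erythroid and platelet markers had 1 of 9 higher and 5 lower, at 89.8 to 90.0 CPM in SG ILC1 and 118 to 122 CPM in Spl NK, with 2 higher with loess offsets or with only the 4 libraries in the fit. The defining genes Cd79a, Ms4a1, Lyz2, Adgre1, Dcn, Cdh5 and Gata1 had no peak among those tested, and a part of these cell types in the results was not tested.

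Salivary epithelium markers had 11 of 38 peaks higher and 10 lower, with a median of -0.36, and 7 of the 11 higher peaks were those of Cdh1. Of 13 such genes with a tested peak, 5 had a higher peak and 8 a lower one, with both in 3. The genes named here are ones with a higher peak. Their summed level was 389 to 399 CPM in SG ILC1 and 298 to 322 CPM in Spl NK. Epcam, an epithelial adhesion gene, had 30.7 and 28.9 CPM at its promoter in SG ILC1 and 11.7 and 10.2 CPM in Spl NK (1.44 ± 0.20, adjusted p = 7.22e-12). A peak between genes assigned to Krt8, a keratin gene of glandular epithelium, had 5.34 and 5.11 CPM in SG ILC1 and 0.655 and 1.17 CPM in Spl NK (2.53 ± 0.40, adjusted p = 3.35e-09). No tested peak was assigned to Krt5, Krt7, Krt14, Krt19, Elf3, Aqp5 or Muc19. In RNA of sorted liver cells, Epcam had 44.6 ± 12.7 CPM in double-positive ILC1 and 1.34 ± 1.38 CPM in NK cells (SD, n = 4 each, log2 fold change 5.05, edgeR adjusted p = 0.00283). Cdh1 had 59.1 ± 30.4 and 3.53 ± 2.65 CPM in the same cells and was not called (4.06, adjusted p = 0.112). Krt8 was near 0 and not called, at 0.467 ± 0.638 and 2.24 ± 1.65 CPM (-2.255, adjusted p = 0.808). A part of epithelial DNA in the higher peaks of Cdh1, Epcam and Krt8 was not tested. Among ILC2 and ILC3 markers 14 of 32 peaks were higher and 9 lower, with a summed level of 761 to 788 CPM in SG ILC1 and 560 to 635 CPM in Spl NK. Il13, a type 2 cytokine gene, had all 4 peaks higher, with 65.3 and 71.7 CPM in SG ILC1 and 8.43 and 9.28 CPM in Spl NK at a peak between genes (2.95 ± 0.20, adjusted p = 4.26e-47). Il23r, the interleukin 23 receptor of ILC3, also had 4 of 4 higher, and an exon peak had 16.2 and 17.8 CPM in SG ILC1 and 0.737 and 1.37 CPM in Spl NK (4.03 ± 0.36, adjusted p = 2.13e-27). The exon peak of Tmem176a, an ion channel gene of ILC3 and dendritic cells, had 16.7 and 20.2 CPM in SG ILC1 and 1.39 and 2.34 CPM in Spl NK (3.32 ± 0.30, adjusted p = 1.39e-26). In contrast, both peaks of Il1rl1, the interleukin 33 receptor of ILC2, were lower.

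Peaks with the largest changes lay mostly outside these lists, which hold only a small part of the 51292 peaks tested. The peaks named here were taken from called peaks with at least 5 CPM in a group and an assigned gene, 1 per gene. The highest fold change was at an intron peak of the deubiquitinase gene Usp37, with 36.8 and 32.3 CPM in SG ILC1 and 0.982 and 1.47 CPM in Spl NK (4.82 ± 0.30, adjusted p = 6.20e-55). An intron peak of Klrb1, an NKR-P1 family gene, followed, with 35.2 and 34.0 CPM in SG ILC1 and 0.9 and 1.95 CPM in Spl NK (4.62 ± 0.30, adjusted p = 7.33e-51). The other 10 of the 12 highest had log2 fold changes from 4.09 to 4.6 and were assigned to Slc39a14, Mnat1, Pex16, Usp28, Slx4, Akap13, Pi4k2b, Phex, Mir684-2 and Cpeb3. The lowest was at an intron peak of As3mt, the arsenic methyltransferase gene, with 0.274 and 0.247 CPM in SG ILC1 and 22.8 and 14 CPM in Spl NK (-6.10 ± 0.39, adjusted p = 9.68e-52). The next 11 ran from -4.95 to -4.56 and were assigned to Eps15l1, Cmklr1, Abcg1, Rab37, Asrgl1, Rora, Slc2a10, Sgk1, Vmn1r-ps147, Lpin1 and Brd3. Sgk1, a kinase that inactivates FOXO factors, had 2.26 and 1.03 CPM at an intron peak in SG ILC1 and 38.3 and 39.8 CPM in Spl NK (-4.66 ± 0.25, adjusted p = 4.43e-73). At promoters the 6 highest were those of Usp28, Slx4, Akap13, Mir684-2, Snx29 and Cnppd1, and those of Cmklr1, Myom2, Dcp1b, Txndc5 and Fkbp10 were among the lowest, from -4.88 to -4.07.

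Some genes held many called peaks. Hivep3, a zinc finger gene, had the most peaks higher in SG ILC1, 25 of 39 with 4 lower, over chr4:119725518-120130004. The phosphatase gene Inpp4b, which is in the ILC1 list, had 24 of 47 higher and 3 lower, and Snx29 had 20 of 32 higher and 3 lower. Akap13, an anchor of protein kinase A, had 19 of 25 higher and none lower, and the phosphatase gene Ptprj 16 of 19 and none lower. Dock10 had 19 of 23 higher, Bcl2, the survival gene, 17 of 27 and Ptk2b 17 of 23, with 1, 2 and 1 lower. In the other direction the phosphodiesterase gene Pde4d had 20 of 48 lower with 6 higher, Plcb4 17 of 20 with none higher, and Mef2c 13 of 15 with 1 higher and a median of -2.18. Of 2219 genes with at least 5 tested peaks, 15 had every peak called higher, 44 had every peak called lower, and 47.6% had called peaks in both directions.

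X-linked peaks leaned lower in SG ILC1. Of 1364 X-linked peaks 13% were higher and 34.3% lower with a median of -0.32, against 22.2% and 26% of 49922 autosomal peaks with a median of -0.09. Firre, an X-linked noncoding RNA gene, had 15 of 17 peaks lower and none higher. Xist, the RNA that coats the inactive X and whose values were looked up after this split was seen, had 36.1 and 30.9 CPM at a promoter peak in SG ILC1 and 95.8 and 64.6 CPM in Spl NK (-1.26 ± 0.18, adjusted p = 4.38e-11). That Xist peak averaged 22.4 CPM in Liv ILC1 and 45.3 CPM in Liv NK. The sex of the mice is not given in the sources used here and was not tested.

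The liver comparison shares no library with SG ILC1 against Spl NK, and its ILC1 and NK cells come from 1 organ. There 9583 peaks (18.7%) were called, 5044 (9.83%) higher in Liv ILC1 and 4539 (8.85%) lower. Over all peaks the fold changes of SG ILC1 over Spl NK and of Liv ILC1 over Liv NK had a Pearson's r of 0.417, and over the 24745 called peaks of 0.513, as a description across peaks within the same normalisation. The direction was shared at 69.5% of the called peaks and at 60.4% of all peaks. The test of the difference between both effects called 15404 peaks (30.0%), 6899 (13.5%) with a larger value for SG ILC1 over Spl NK and 8505 (16.6%) with a smaller one, and its median over all peaks was -0.16. Of the peaks higher in SG ILC1, 2510 were also higher in Liv ILC1 (22.2%), 495 were lower there (4.39%) and 8276 were not called there, of which 4858 had a called difference. Of the peaks lower in SG ILC1, 2877 were also lower in Liv ILC1 (21.4%), 310 were higher there (2.3%) and 10277 were not called there, of which 5545 had a called difference. The liver libraries were shallower and had a higher level at their lowest peaks, and a part of this in the difference was not tested.

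The Gzmc promoter peak was higher in both comparisons, with a log2 fold change of 1.67 in liver, and the difference of 1.38 ± 0.39 was called (adjusted p = 0.00305). Without Liv NK library 1 that difference of Gzmc was 1.16 and not called (adjusted p = 0.056). The second Gzmc peak, with 2.50 in SG ILC1 over Spl NK, had -0.46 in liver, which was not called, and a difference of 2.96 ± 0.42 (adjusted p = 2.61e-10). The Klf2 promoter had -0.75 in liver and a difference of -1 ± 0.29 (adjusted p = 0.00379), which was -0.74 and not called without Liv NK library 1 (adjusted p = 0.091). The Klf2 peak at chr8:72329555-72330331 had -1.84 in liver and a difference of -2.30 ± 0.45 (adjusted p = 8.71e-06). For the third Klf2 peak the difference of -1.51 was not called (adjusted p = 0.114), but it was called without SG ILC1 library 1 (-2.44, adjusted p = 0.0348) and without Liv ILC1 library 2 (-2.36, adjusted p = 0.0192). The Cxcr6 promoter, at 3.44 in SG ILC1 over Spl NK and 3.01 in liver, had a difference of 0.44 ± 0.41 (adjusted p = 0.452).

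Several genes had opposite signs in the 2 comparisons. Il7r was lower in SG ILC1 at its promoter (-1.60) and higher in Liv ILC1 (1.30), a difference of -2.90 ± 0.36 (adjusted p = 1.44e-13). Tcf7 had -1.38 and 0.62 in liver, a difference of -2 ± 0.27 (adjusted p = 1.12e-11). The gate gene Itga2 had -1.03 and 0.83 in liver, a difference of -1.86 ± 0.26 (adjusted p = 1.84e-10). Going the other way, Nt5e had 2.65 and -1.05 in liver (difference 3.69 ± 0.45, adjusted p = 4.17e-14), and Itgb8 had 2.00 and -1.02 (difference 3.02 ± 0.30, adjusted p = 1.41e-20). The promoter of Nr4a2, an orphan receptor induced by activation, had 202 and 190 CPM in SG ILC1 and 135 and 113 CPM in Spl NK (0.66 ± 0.21, adjusted p = 0.00381) and -1.17 in liver, a difference of 1.83 ± 0.30 (adjusted p = 4.61e-08). Its rise in SG ILC1 lost the call without SG ILC1 library 1, SG ILC1 library 2 or Spl NK library 2 (0.46 to 0.63, adjusted p = 0.0561 to 0.161). Among genes of residency and TGF-beta, Itgae had 0.67 in liver and a difference of 1.67 ± 0.27 (adjusted p = 5.50e-08), and the Tgfbr2 intron peak had 0.35 in liver and a difference of 1.51 ± 0.28 (adjusted p = 1.35e-06). For Maff the liver value was 1.15 and the difference 2.60 ± 0.45 (adjusted p = 2.91e-07). Il13, at 0.51 in liver, had a difference of 2.44 ± 0.29 (adjusted p = 9.13e-15), and Il23r, at -0.30, of 4.33 ± 0.52 (adjusted p = 1.97e-14). The Usp28 promoter peak, with 4.27 in SG ILC1 over Spl NK and -1.21 in liver, had the largest difference among peaks eligible to be named, 5.48 ± 0.49 (adjusted p = 1.81e-25).

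**Figure D4:**
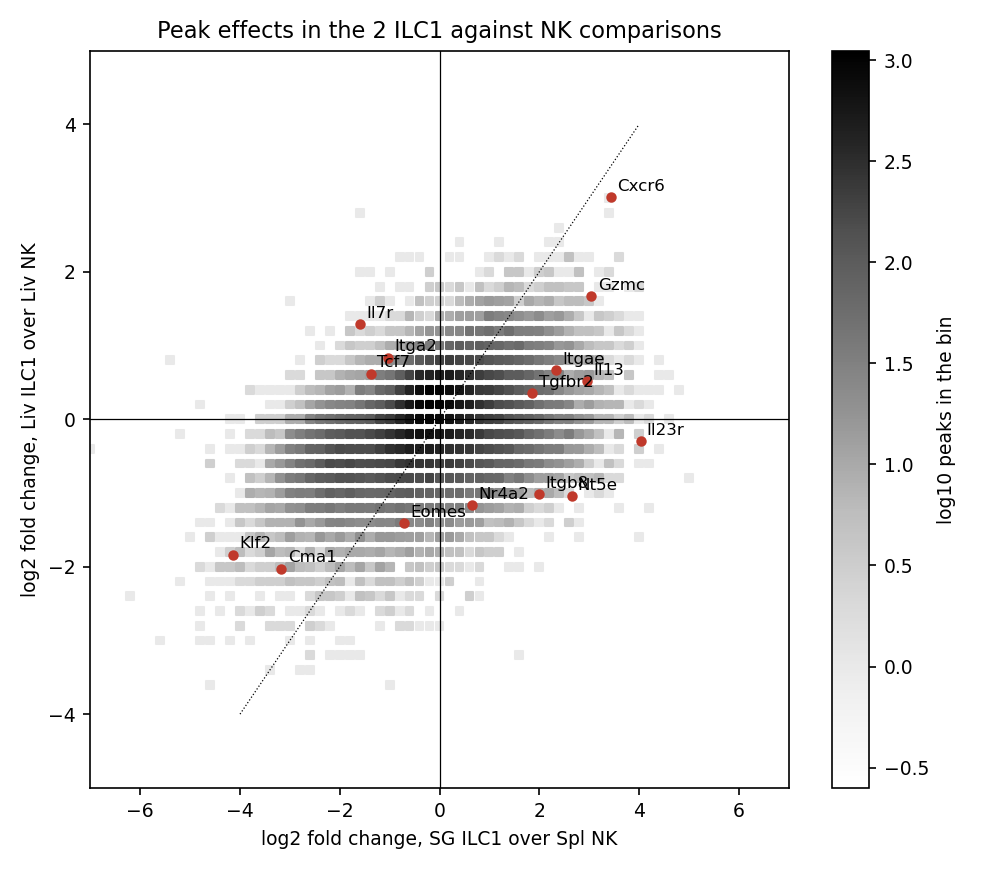
Log2 fold change of SG ILC1 over Spl NK (x) against Liv ILC1 over Liv NK (y) for all 51292 peaks, with darker squares for more peaks (log10 scale), values beyond the bins drawn at the edge, a dotted line of equal effects and red points for the described peak of 15 genes. Cxcr6 lies near the line of equal effects, Il7r, Tcf7 and Itga2 lie left of 0 and above it, and Nt5e, Itgb8 and Nr4a2 lie right of 0 and below it.

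By list, the egress genes had a median of -1.02 in SG ILC1 over Spl NK and -0.43 in liver, and the ILC1 genes 0.63 and 0.29, with 71 of 134 peaks higher and 20 lower in SG ILC1 (53% and 14.9%, against 22.0% and 26.2% of all peaks). The ILC1 list holds the gate gene Itga1 (13 peaks) and the label gene Gzmc (2 peaks), so it is not independent of the sort. Inpp4b alone gave 24 of its higher peaks. Itga1 is also in the residency and salivary gland ILC1 lists. Conventional NK genes had -0.20 and -0.42, with 31 of 73 lower and 14 higher (42.5% and 19.2%), and the higher count was 7 to 9 without SG ILC1 library 2 or either Spl NK library. That list holds the reporter gene S1pr5 and the gate gene Itga2. Residency genes had 0.89 and 0.23, with the difference called larger at 51 of 132 peaks and smaller at 4, against 13.5% and 16.6% of all peaks. TGF-beta genes had 0.48 and 0.10, with the difference called larger at 43 of 122 peaks and smaller at 5. Salivary gland ILC1 genes had 26 of 79 larger and none smaller. Cell cycle genes had -0.41 and -0.00, and the difference was called smaller at 15 of 42 peaks and larger at 1.

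RNA was not measured in salivary gland or spleen, so the nearest expression readout was that of liver cells sorted as GzmC+GzmcFM+ double-positive ILC1 (DP, 4 libraries) and S1pr5eGFP+ NK cells (NK, 4 libraries). RNA and ATAC libraries come from different samples, and the organ of the DP cells is not that of SG ILC1. In the RNA test 699 of 17124 genes (4.08%) were called, 429 (2.51%) higher in DP and 270 (1.58%) lower, and with a term for the mouse 1647 were called. Of 10054 genes with both a promoter peak and an RNA test, 3.3% were higher and 2.1% lower in DP. Among 1573 genes whose promoter was higher in SG ILC1, 10.7% were higher in DP and 1.8% lower, and with the block 18% and 5.5%, where all 10054 genes had 6.4% and 6.4%. Among 2314 genes whose promoter was lower, 1.4% were higher in DP and 4.2% lower, and with the block 2.5% and 9.9%. Where the promoter changed past 4-fold, 29 of 182 genes with a higher promoter were higher in DP and 2 lower, and 28 of 168 genes with a lower promoter were lower in DP and 1 higher, and with the block the shares higher and lower were 25.8% and 3.3% for a higher promoter and 1.2% and 24.4% for a lower one.

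**Figure D5:**
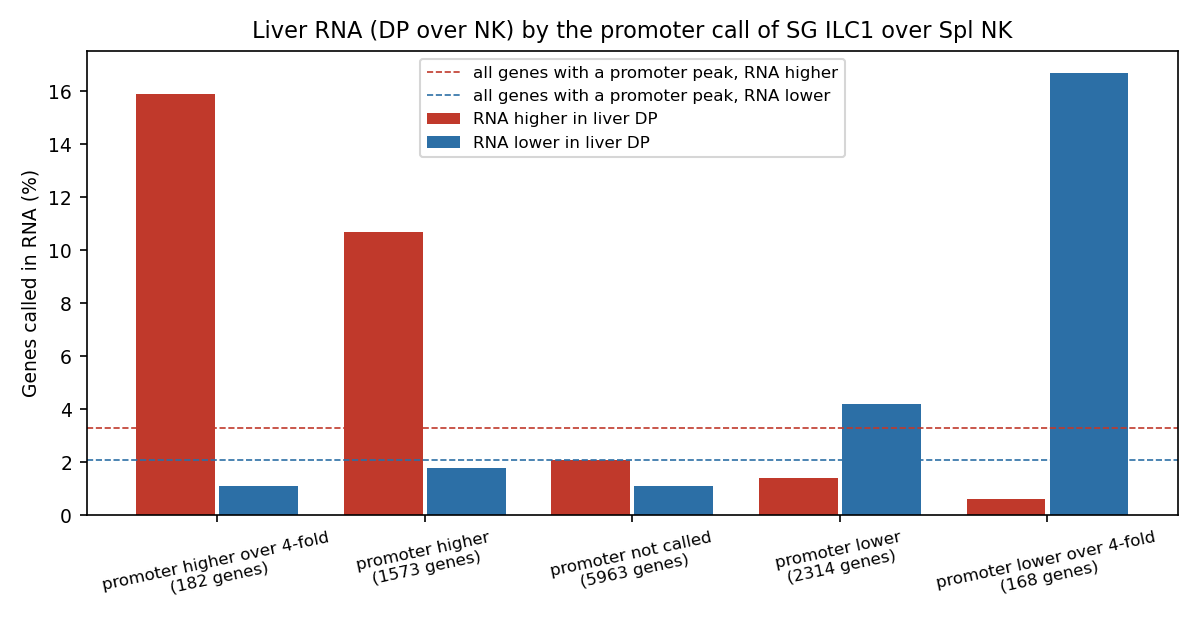
Percent of genes called higher (red) or lower (blue) in RNA of liver DP over liver NK, by the promoter call of SG ILC1 over Spl NK, with the number of genes under each pair of bars and dashed lines at 3.3% and 2.1% for all genes with a promoter peak. Genes with a promoter higher past 4-fold had 15.9% higher RNA, and genes with a promoter lower past 4-fold had 16.7% lower RNA.

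Of 73 genes chosen for a closer look in either assay that had an RNA test, 29 were called, 14 higher and 15 lower in DP. The share called over all 17124 genes was 4.08%. Because the 73 were chosen with results of these data known, their count is no measure of agreement between the assays. Gzmc had 374 ± 83.6 CPM in DP and 2.31 ± 1.34 CPM in NK (SD, n = 4 each, log2 fold change 7.34, edgeR adjusted p = 6.87e-07). Klf2 had 32.7 ± 20.1 CPM in DP and 1720 ± 773 CPM in NK (-5.72, adjusted p = 6.45e-06). Cxcr6 had 1260 ± 262 CPM in DP and 3.98 ± 2.17 CPM in NK (8.30, adjusted p = 5.72e-07), and Zfp683 131 ± 31.7 and 1.01 ± 0.564 CPM (7.02, adjusted p = 1.90e-06). S1pr1, S1pr5, Cx3cr1, Cma1 and As3mt, each with at least 1 peak lower in SG ILC1, were lower in DP, with log2 fold changes from -10.53 to -4. Gzmc and S1pr5 are the genes by which the DP and NK cells were sorted. Their RNA values therefore check the sort and are no independent readout. For other genes the called peaks did not all lie on the side of the transcript, or the sizes differed. Il7r, whose 3 peaks were lower in SG ILC1, was higher in DP, with 109 ± 57.7 CPM in DP and 4.77 ± 2.04 CPM in NK (4.51, adjusted p = 0.00056), the direction of its liver peak. Eomes, with a small peak change, had 2.79 ± 2.98 CPM in DP and 440 ± 45.6 CPM in NK (-7.30, adjusted p = 0.000113). Zeb2, with 5 of 9 peaks higher and 2 lower in SG ILC1, had 4.53 ± 3.02 CPM in DP and 279 ± 129 CPM in NK (-5.94, adjusted p = 0.00273). Bach2, with 8 of 24 peaks higher, 4 lower and the others not called, was lower in DP, at 15.3 ± 2.45 CPM in DP and 54.6 ± 4.70 CPM in NK (-1.83, adjusted p = 0.00125).

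Itgae was low and not called, at 10.2 ± 9.88 CPM in DP and 7.36 ± 2.90 CPM in NK (0.47, adjusted p = 0.952), and Tgfbr2, at 157 ± 44.2 CPM in DP and 139 ± 22.9 CPM in NK, was not called either (0.18, adjusted p = 0.925). Dtx1, a NOTCH regulator with an intron peak of 1.03 and 1.40 CPM in SG ILC1 and 11.5 and 15.5 CPM in Spl NK (log2 fold change -3.42 ± 0.28), had 98.4 ± 8.33 CPM of RNA in DP and 10.7 ± 5.77 CPM in NK (3.20, adjusted p = 7.45e-05). Among other genes of this comparison, Maff had 13.8 ± 5.34 CPM in DP and 1.09 ± 0.437 CPM in NK (3.66, adjusted p = 0.00114), and Lag3 41.2 ± 6.36 CPM in DP and 1.66 ± 1.09 CPM in NK (4.63, adjusted p = 9.17e-05). Jun, whose promoter peak was not called, was higher in DP, at 137 ± 33.1 CPM in DP and 62.2 ± 9.31 CPM in NK (1.14, adjusted p = 0.0121). Gzmb had 2540 ± 569 CPM in DP and 1380 ± 139 CPM in NK (0.88, adjusted p = 0.033), and Gzma 2230 ± 1310 CPM in DP and 9290 ± 1550 CPM in NK (-2.06, adjusted p = 0.0181), each on the side of its peaks. The activating receptor gene Klra8, with a promoter slightly higher in SG ILC1, had 7.33 ± 4.6 CPM in DP and 770 ± 301 CPM in NK (-6.71, adjusted p = 9.43e-05). Pmepa1 and Rora were not called in the RNA test but were called higher in DP with a term for the mouse (2.09, adjusted p = 0.00911, and 1.61, adjusted p = 0.00951). Other genes gained a call with that term too. On the side of their peaks, Nt5e (1.71, adjusted p = 0.0103) and Rgs1 (2.71, adjusted p = 0.000287) were called higher and Nkg7 lower (-0.99, adjusted p = 8.27e-05). Against the side of most of their called peaks, Tnfaip3 (-1.005, adjusted p = 0.0166) and Stat4 (-0.42, adjusted p = 0.0108) were called lower and Klrc1 higher (1.12, adjusted p = 0.00121). Cmklr1 was lower in DP (-5.51, adjusted p = 0.042), a call lost with the block (-5.11, adjusted p = 0.0921) and without any of the 8 DP and NK libraries in turn (adjusted p = 0.0557 to 0.126).

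The 12 motifs were counted in the RefSeq windows of 300 bases, 250 before and 50 after a start, that lay on a promoter peak with at least 150 bases of overlap, which matched 8575 of 32817 windows. E-box letters were in 24.7% of 813 windows at peaks higher in SG ILC1 (95% Clopper-Pearson interval 21.8 to 27.8), in 15.9% of 1765 windows at lower peaks (14.2 to 17.7) and in 17.1% of 5997 at peaks not called, against 20.2% of all windows. AP-1 letters were in 6.89% at higher peaks (5.24 to 8.85), 4.76% at lower peaks (3.81 to 5.86) and 3.99% at peaks not called, against 7.81% of all windows. KLF letters were in 26.0% at higher peaks (23.0 to 29.1), 21.0% at lower peaks (19.1 to 23.0) and 24.6% at peaks not called, against 17.6% of all windows, and RUNX letters in 4.31%, 4.02% and 3.55%, against 5.27%. ETS letters were in 26.6% at higher peaks, 29.0% at lower peaks and 29.4% at peaks not called, against 23.8%. The GC content of the windows was 62.0% at higher, 60% at lower and 62.3% at not called peaks. These shares are descriptions with no test. They leave out peaks away from promoters, where most of the calls lay, and most promoter peaks too. Of 17983 promoter peaks tested, 7608 were matched to a window. Higher promoter peaks numbered 2817 against 813 windows, and lower ones 3869 against 1765.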

How the data were processed

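Members and gene lists were chosen with earlier results of these data known. ATAC-seq was measured in 8 libraries and RNA-seq in 15, all of mouse cells. The deposited ATAC table gives whole-number counts of fragments per peak for every library over 1 peak set, with the gene and site type of each peak as the authors assigned them. The deposited RNA table gives expected counts per gene that the authors estimated, rounded here to whole numbers. Per the submitters' processing notes, Salmon 1.6, Bowtie2, SAMtools, MACS2, DESeq2 and the mm10 build were used, and settings are not given in the sources used here. Whether peaks were called per library or on pooled reads is likewise not given.

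Counts were fitted with edgeR 4.0.16 in R 4.3.3 over all 8 ATAC libraries: TMM factors, filterByExpr at a minimum count of 10, robust quasi-likelihood fit, 1 mean per group, 2-sided tests, Benjamini-Hochberg adjustment over all peaks and a call at 0.05. The 2 libraries a group leave 4 residual degrees of freedom, so precision is limited by their number. The same test compared DP and NK over all 15 RNA libraries (51641248 to 73309063 counts each), where numbers name mice and so pair samples. ATAC replicate numbers are not stated to mark shared animals, and are treated as unpaired. The code was tested on simulated data, with 100 features changed at each size and all others equal between groups. The changed features left out those of lowest level. At a log2 fold change of 1 the ATAC test recovered 70 of 100 peaks, and at 2 it recovered 100. The RNA test recovered 3 of 100 genes at 1 and 40 at 2, so a gene not called in RNA can have changed. In the data 48.2% of peaks were called, unlike in the simulation, so the ATAC rates need not hold there or at low peaks. Motifs were counted in RefSeq promoter windows in place of peak centres, since no genome was used, a choice made after seeing the data, and shares carry exact binomial intervals for counting error only.

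Peaks were named by rule: the 12 highest and 12 lowest log2 fold changes among called peaks of at least 5 CPM in a group, with no overlap between groups and an assigned gene that is not a predicted one, 6 promoter peaks each way, 8 genes each way with the most called peaks, every peak of Gzmc and Klf2, the peak of smallest p of each list gene, and 6 peaks each way for the difference. Some genes these rules pick are not reported here. Promoter and marker values of other peaks, Xist included, were chosen after values were seen. Alternatives changed scaling, filter, tool, libraries and the replicate block. Of 51412 peaks, 120 failed the filter, and 5520 have no assigned gene.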

Additional observations from a re-analysis of the deposited data

Results flagged for a closer look

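At 27 named peaks the effect of SG ILC1 over Spl NK differed from that of Liv ILC1 over Liv NK in edgeR's test of the difference (adjusted p under 0.05, 2 libraries a group). Values are the first log2 fold change minus the liver one. The liver libraries were shallower, at 5609587 to 9957335 counts against 11101944 to 26944890 in SG ILC1 and Spl NK, and organ and digestion differ only in the first comparison.

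The differences were 2.96 and 1.38 at the intergenic and promoter peaks of Gzmc and -1 and -2.3 at the promoter and intergenic peaks of Klf2. For genes of residency and TGF-beta they were 1.67 at Itgae, 3.69 at Nt5e, 1.51 at Tgfbr2 and 3.02 at Itgb8. For the interleukin 7 receptor gene Il7r, the TCF-1 gene Tcf7 and the CD49b gene Itga2 they were -2.9, -2 and -1.86. For activation and cytokine genes they were 2.6 at Maff, 1.83 at Nr4a2, 2.44 at Il13 and 4.33 at Il23r.

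Among the peaks of largest change, the difference was 4.57 at Klrb1, 4.46 at Usp37, 5.48 at Usp28, 4.68 at Phex, 4.93 at Atg7 and 4.58 at Ell. It was -3.6 at As3mt, -3.43 at Eps15l1, -3.98 at Brd3, -4.16 at Abcc4, -3.89 at Dtx1 and -3.48 at Samd12. At Usp28, Atg7 and Samd12 the liver effect was itself called with the opposite sign, at -1.21, -3.28 and 0.71.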

How the results depend on the processing

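No alternative reversed a call. Called peaks were 21796 (DESeq2) to 27161 (loess offsets) over the scalings, filters and tools tried, and no called peak was called in the other direction. Against an absolute log2 fold change of 1, a stricter question, 8007 were called, 3314 higher and 4693 lower, and 2802 in the difference from liver. Leaving out each SG ILC1 or Spl NK library in turn (and each liver library for the difference) gave 19021 to 21173 called, 8124 to 8782 higher, 10897 to 12652 lower and 11206 to 15578 in the difference, where a lone library is assumed to vary like the other groups. The share of calls that were higher was 45.6%, and 39.9% to 50.8% over the alternatives.

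With a replicate block for the ATAC numbers, 25048 peaks were called, 11410 higher and 13638 lower, with 15845 in the difference. Deviations of same-numbered libraries correlated at -0.120 to 0.179 over 6 pairs of groups, so the pairing is not shown. For RNA the mice pair the samples, and with the mouse as a replicate block 42 of the 73 genes were called against 29, and 41 with mice 4 to 6 alone, 36 in DESeq2 and 26 to 29 without each library in turn. Among all genes tested, 699 (4.08%) were called without the block and 1647 with it. Over 101 followed peaks and outside the stricter test, 1195 values kept their side of the threshold, 13 lost the call and 3 gained it, and for the difference 431 kept it, 2 lost it and 2 gained it. The Birc5 promoter fall was lost without SG ILC1 library 1 (-0.47, adjusted p = 0.0954), and the Klra4 promoter was called with only the 4 libraries or loess offsets (adjusted p = 0.0367 and 0.0349). The cause was not tested. All 24 motif shares stayed within their intervals when windows had to lie wholly inside the peak, an alternative chosen after seeing the data. A motif search of whole peaks was not run, since no genome was used. At low peaks, depth limits how far a fall can be seen.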
